A study of Rattus norvegicus with 6 samples.

Results

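The Hivep genes encode very large zinc finger proteins, and the rat has 3 in the arrays used here: Hivep1, Hivep2 and Hivep3. They were taken as the transcript clusters whose only gene symbol in the platform annotation is a Hivep symbol. A transcript cluster is the array's set of probes for a transcribed locus. Each gene had 1 such cluster, so the family accounts for 3 of the 14506 genes measured. The family was chosen by its difference between treatments on these same arrays, above all that of Hivep2. The treatment differences of the 3 genes are therefore given as a description, with no p-value, and support nothing.

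The samples were primary motor neuron cultures from rats of embryonic day 13.5, kept for 2 days in vitro. The 3 camptothecin cultures received 1 microM camptothecin for 2 h, and the 3 DMSO cultures an equal volume of DMSO, its solvent. Camptothecin locks topoisomerase 1 onto the DNA it has nicked. Neither group carries a transgene or a deletion by the labels, which call the samples biological replicates without saying how cultures were separated. Differences are therefore set against the spread between these samples, which may be technical.

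Hivep proteins, also called ZAS or Schnurri proteins, carry widely separated pairs of C2H2 zinc fingers that bind DNA sites like those of NF-kB. In the fruit fly, the relative Schnurri works with Smad proteins downstream of the BMP-type ligand Dpp. In mice, Hivep2 acts in the forebrain and with Smad1 in fat cell formation, and Hivep3 restrains bone formation and NF-kB signalling. In people, heterozygous loss of HIVEP2 is linked to intellectual disability. RefSeq lists MIBP1 as a synonym of rat Hivep2, from its binding to an intron of Myc, and Zas3 as a synonym of rat Hivep3.

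The promoters of Hivep1 and Hivep2 are shown because both genes were lower after camptothecin and a promoter entry was matched for them. They are RefSeq sequences of the assembly GRCr8, each from 250 bases before to 50 bases after the annotated start, written 5′ to 3′ on the strand of the gene. Hivep1 is chr17:22917147-22917446 on the minus strand, and Hivep2 is chr1:10179152-10179451 on the plus strand. Capitals mark each GGGCGG, the core of a GC box, or its reverse complement.
Hivep1: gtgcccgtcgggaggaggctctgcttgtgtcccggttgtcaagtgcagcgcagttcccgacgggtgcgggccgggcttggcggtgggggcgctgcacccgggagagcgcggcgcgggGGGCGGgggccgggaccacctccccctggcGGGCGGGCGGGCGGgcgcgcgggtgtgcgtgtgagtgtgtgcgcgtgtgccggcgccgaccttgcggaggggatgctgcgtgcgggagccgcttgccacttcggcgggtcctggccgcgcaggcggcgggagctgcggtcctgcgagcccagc
Hivep2: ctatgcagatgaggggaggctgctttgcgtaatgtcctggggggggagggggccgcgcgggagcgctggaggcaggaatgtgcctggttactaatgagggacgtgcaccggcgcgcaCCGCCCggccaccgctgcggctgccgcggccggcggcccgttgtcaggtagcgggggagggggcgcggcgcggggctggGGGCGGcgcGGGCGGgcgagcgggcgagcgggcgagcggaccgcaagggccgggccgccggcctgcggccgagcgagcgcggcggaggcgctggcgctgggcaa

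Both promoters are rich in G and C, at 78.0% for Hivep1 and 78.3% for Hivep2. The median over the promoters of 11950 measured genes was 58.0%, and 97.5% and 97.8% of those promoters had less GC than Hivep1 and Hivep2. On both strands, GGGCGG occurred 4 times in the Hivep1 window, 3 of them overlapping, and 3 times in the Hivep2 window. At least 1 GGGCGG was found in 50.2% of the promoters of measured genes. Neither window held the kB consensus (4.67% of those promoters), the cyclic AMP response element TGACGTCA (2.46%) or the TATA motif TATAAA (11.7%). The kB consensus is the site class to which Hivep proteins bind. A missing match says only that these letters are not in these windows.

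Hivep2, Hivep1 and Hivep3 were lower in camptothecin, in that order of size. Hivep2 was at 25.9% of its DMSO level on the linear scale, Hivep1 at 50.7% and Hivep3 at 76.9%. Values below are the deposited log2 expression values, and a log2 change is the camptothecin mean minus the DMSO mean. SE is limma's standard error, from a fit over all 29214 clusters.

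Hivep2, the factor that binds within Myc in the rat, had log2 values of 8.08, 7.94 and 7.99 in camptothecin, against 9.94, 9.90 and 10.03 in DMSO. The highest camptothecin array lay 1.82 log2 units below the lowest DMSO array, while arrays of a treatment spanned 0.138 in camptothecin and 0.128 in DMSO. Its means were 8.01 ± 0.070 in camptothecin and 9.96 ± 0.066 in DMSO (SD, n = 3 each), a log2 change of -1.95 (SE 0.072). This was the fourth most negative change, rank 4 of 14506 genes.

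Hivep1, known in mice for binding an enhancer of the alpha A crystallin gene, had 9.93, 9.91 and 9.81 in camptothecin, against 10.87, 10.75 and 10.96 in DMSO. The groups did not overlap, with a gap of 0.824 between the nearest arrays. Its means were 9.88 ± 0.063 in camptothecin and 10.86 ± 0.11 in DMSO (SD, n = 3 each), a log2 change of -0.98 (SE 0.079). It stood at rank 163 of 14506 from the most negative change.

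Hivep3, which in mice joins Wwp1 in marking Runx2 for degradation, had 6.51, 6.63 and 6.67 in camptothecin, against 7.09, 6.81 and 7.05 in DMSO. The groups were close, with a gap of 0.146 between camptothecin replicate 3 and DMSO replicate 2. Its means were 6.60 ± 0.083 in camptothecin and 6.98 ± 0.15 in DMSO (SD, n = 3 each), a log2 change of -0.38 (SE 0.094). Here the gap between the groups was smaller than the range of the DMSO arrays, 0.275. It stood at rank 1104 of 14506.

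**Figure D1:**
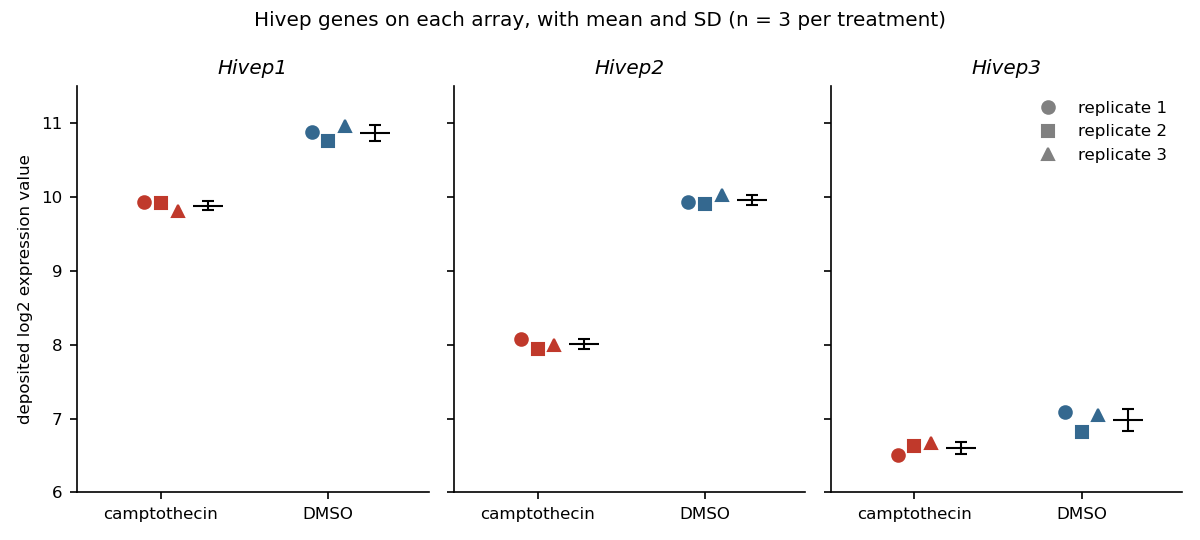
Deposited log2 expression values (vertical axis) of Hivep1, Hivep2 and Hivep3 on each of 6 arrays, camptothecin left and DMSO right, with mean and SD beside the points (n = 3 per treatment). The camptothecin arrays lie below the DMSO arrays for each gene, by a gap of 1.82 for Hivep2, 0.824 for Hivep1 and 0.146 for Hivep3.

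At the call rule used here (limma, Benjamini-Hochberg adjusted p under 0.05 over all clusters), 3 of 3 Hivep genes were called lower, where 9.35% of all genes were. For 3 of 3 the camptothecin arrays all lay below the DMSO arrays, as for 15.5% of all genes. Because the contrast chose the family, nothing is read from these counts. Hivep3 was short of the rule without camptothecin replicate 1 (log2 change -0.33), camptothecin replicate 2 (-0.39), camptothecin replicate 3 (-0.41), DMSO replicate 1 (-0.33) or DMSO replicate 3 (-0.35).

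Markers of several cell types were measured, without a test of whether each was expressed. Of 12 listed motor neuron markers 10 were measured, of which 3 rose and 1 fell, and Mnx1 and Chat were not analysed here. In DMSO, 6 of the 10 were dimmer than the median cluster (Isl1, Isl2, Slc18a3, Slc5a7, Nefh and Prph), while Nefm averaged 10.57. Their summed linear level was 2659 to 2946 in camptothecin and 2336 to 2355 in DMSO, most of it from Nefm. Without Nefm it was 754 to 839 in camptothecin and 821 to 845 in DMSO. In DMSO, all 10 measured markers of spinal interneurons and sensory neurons were brighter than that median, although Calca averaged 6.04 in camptothecin, below it. Of these 10, 6 fell and 0 rose, where 9.35% of all genes fell and 11.3% rose, and their summed linear level was 3162 to 3332 in camptothecin and 5043 to 5385 in DMSO. Without their brightest, Gad2, it was 2378 to 2517 in camptothecin and 3433 to 3730 in DMSO. Gad1, Gad2, Slc6a5, Slc17a6 and Pax2, which fell, are 40.1 to 91.2 kb from annotated start to end. Calca, which also fell, is 4.95 kb. Slc32a1, Lhx1, Lhx5 and Pou4f1, of 4.47 to 8.44 kb, did not pass, with log2 changes from 0.08 to 0.26. The part of gene length in these markers was not tested. Among 9 progenitor and astroglial markers 1 fell, and the summed level was 10851 to 11199 in camptothecin and 10689 to 10857 in DMSO. Among 4 oligodendrocyte and Schwann cell markers 1 fell, and among 6 skeletal muscle markers 1 rose. The call rule was met by 0 of 7 fibroblast and meninges markers and 0 of 8 endothelium, blood and microglia markers. No marker is listed at 0, which by itself does not show that each was expressed. The part of interneuron markers in the Hivep differences was not tested, and fewer cells of a type and less RNA per cell cannot be told apart.

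Across the camptothecin arrays the 3 genes had no common order. Against its own DMSO mean, the 3 camptothecin arrays differed by -2.01 to -1.87 for Hivep2, by -1.05 to -0.94 for Hivep1 and by -0.47 to -0.31 for Hivep3, all on the log2 scale. The lowest camptothecin array was replicate 2 for Hivep2, replicate 3 for Hivep1 and replicate 1 for Hivep3. In DMSO, replicate 2 was the lowest array for each of the 3 genes. That array also had the lowest median over all clusters, 6.22 on the log2 scale, where the others ran from 6.26 to 6.33.

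The clusters differed in brightness, which cannot be read as a difference in transcript amount between genes. The cluster of Hivep1 was brighter than 94.2% of all clusters by its mean over the 6 arrays, that of Hivep2 brighter than 85.8% and that of Hivep3 brighter than 59.7%. Hivep3, with the smallest change, thus lay nearest to the median of all clusters, 6.28. RefSeq lists 7 transcripts for Hivep1, 11 for Hivep2 and 4 for Hivep3, which a single cluster for each gene does not separate.

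The 3 genes share a long genomic span, the distance from the start to the end of the annotated gene, taken from GRCr8. It is 130 kb for Hivep1, 199 kb for Hivep2 and 402 kb for Hivep3, so the order of the spans is not the order of the changes. Of the 1257 genes spanning 100 to 300 kb, 33.3% were called lower and the median log2 change was -0.12. Hivep2 had the fourth most negative change of those genes and Hivep1 stood at rank 92. Of the 374 genes of 300 kb or more, 40.1% were called lower with a median of -0.19, and Hivep3 stood at rank 125. The 5th percentile of the change was -1.10 in the 100 to 300 kb class, so Hivep2 lay beyond it and Hivep1 did not.

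**Figure D2:**
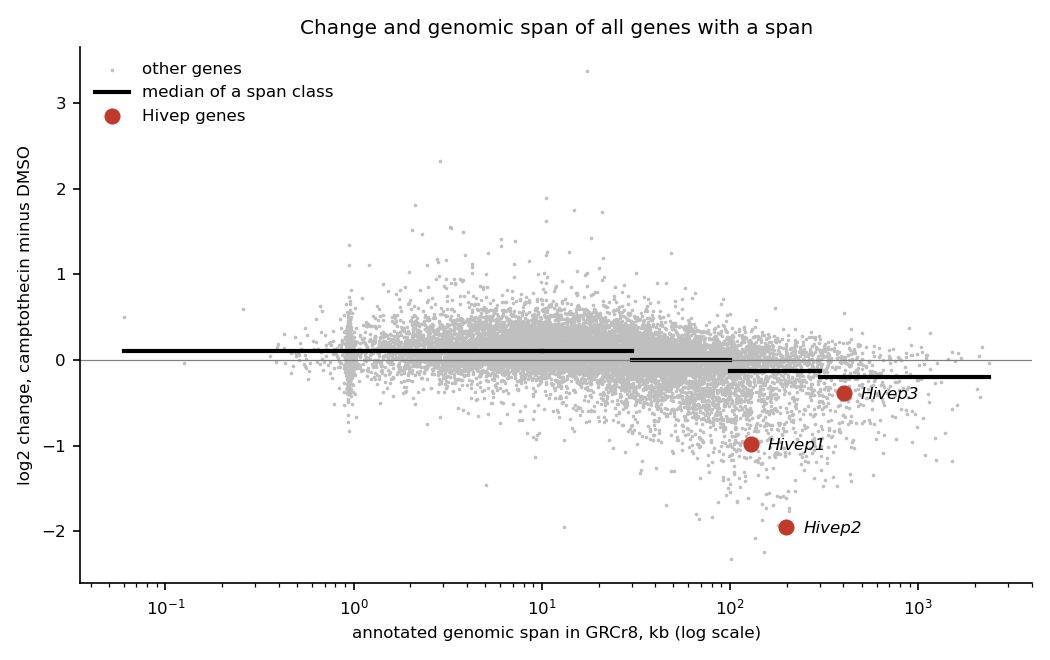
Log2 change, camptothecin minus DMSO (vertical axis), against annotated genomic span in kb on a log axis, with a grey point for each other gene, black lines for the median of a span class and red points for the Hivep genes. Hivep2 (-1.95, 199 kb) and Hivep1 (-0.98, 130 kb) lie well under their class median of -0.12, and Hivep3 (-0.38, 402 kb) nearer to its class median of -0.19.

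The genes beside the Hivep genes were a readout that did not choose the family. The 12 measured neighbours were the nearest 2 on each side of each gene in RefSeq order. They lay 23.5 to 830 kb from the Hivep gene, with 0 to 4 unmeasured genes between. Of the 12, 1 was called lower and 0 higher (limma), where 9.35% of all genes were called lower and 11.3% higher. Their median log2 change was -0.06, against 0.06 over all genes. The count was 3, with 2 lower and 1 higher, without DMSO replicate 3. When arrays were instead centred on their ribosomal protein genes, 7 of the 12 were called lower. The median change of all clusters was then -0.19, against 0.07 as deposited. Of 66 measured ribosomal protein genes, 33 were called higher as deposited and 0 lower (limma), with a median log2 change of 0.23. For 62 of the 66 the camptothecin arrays all lay above the DMSO arrays. Whether this came from scale or from these genes was not tested, so this centring cannot be taken as neutral.

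Vta1, a cofactor of endosomal sorting that follows Hivep2 after 2 unmeasured genes, was lower, with a log2 change of -0.35 (SE 0.061, limma's adjusted p = 0.0100). It had 8.42, 8.48 and 8.41 in camptothecin, against 8.76, 8.81 and 8.80 in DMSO, and the groups did not overlap. On the other side of Hivep2, Aig1, a membrane lipid hydrolase, averaged 7.97 ± 0.098 in camptothecin and 8.29 ± 0.15 in DMSO (SD, n = 3 each; adjusted p = 0.0689, limma). The change of Hivep2 was -1.95, and whether either neighbour differed from it was not tested.

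Hivep1 and Hivep3 each lie next to an endothelin gene, which encodes a vasoactive peptide. Edn1, next to Hivep1, averaged 4.82 ± 0.19 in camptothecin and 4.41 ± 0.20 in DMSO (SD, n = 3 each; adjusted p = 0.0781, limma) and was dim, below the median of all clusters. Edn2, next to Hivep3, averaged 6.30 ± 0.11 in camptothecin and 6.29 ± 0.012 in DMSO (adjusted p = 0.969, limma), with a sign that turned under other scalings. On their other sides, Nedd9, a focal adhesion scaffold separated from Hivep1 by 2 unmeasured genes, had a log2 change of -0.04 (SE 0.069, adjusted p = 0.765). Guca2b, which encodes uroguanylin and lies next to Hivep3, had a log2 change of 0.29 (SE 0.086, adjusted p = 0.0604).

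**Figure D3:**
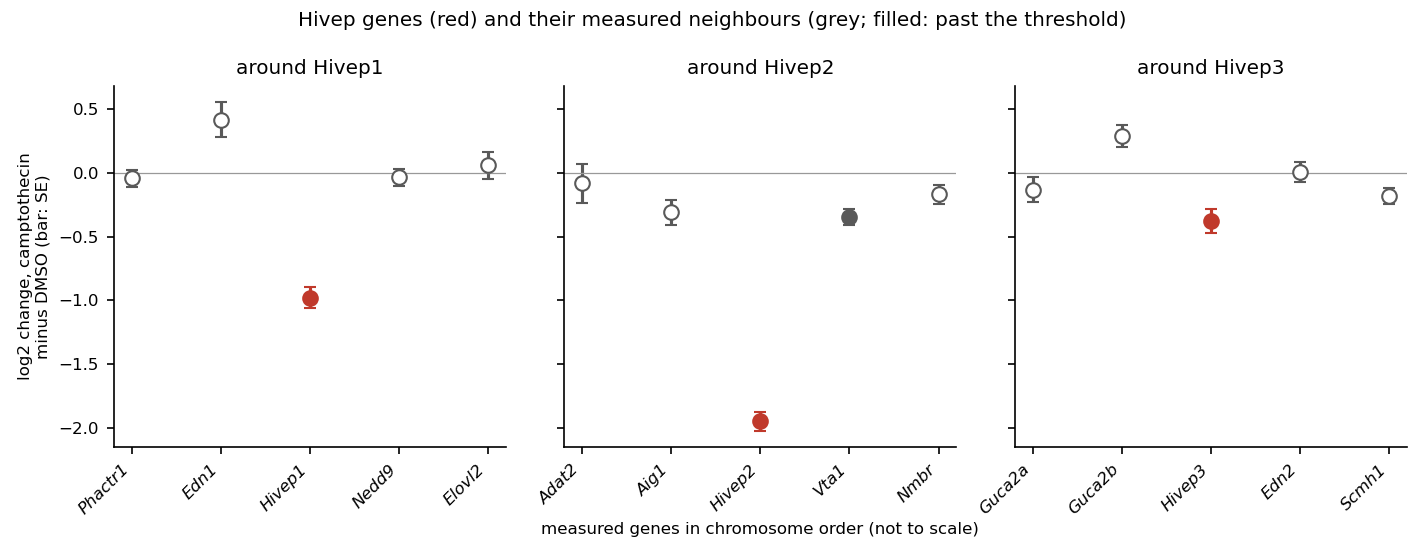
Log2 change, camptothecin minus DMSO, with limma's SE as bars (vertical axis), for each Hivep gene (red) and its 2 nearest measured genes on each side (grey) in chromosome order, not to scale; filled points passed the threshold. Of the 12 neighbours, Vta1 (-0.35) passed. The Hivep gene is the lowest point of each panel, but the family was chosen by its change, so nothing is read from this.

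Among proteins that bind kB sites or control that binding, most measured genes did not pass the test. Of 22 listed genes 16 were measured, of which 3 rose, 1 fell and 12 did not pass. That is 18.8% higher and 6.25% lower, beside 11.3% and 9.35% of all genes. Falls numbered 1 among the 2 genes with a span of at least 100 kb and 0 among the 14 shorter genes. Of all genes in these span classes, 34.8% and 6.13% were called lower. The median log2 change was 0.05, and 0.06 over all genes. With ribosomal centring the counts were 2 higher and 6 lower.

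Nfkb1, the gene of the p50 subunit and its precursor, had 6.31, 6.27 and 6.28 in camptothecin, against 7.09, 7.35 and 7.30 in DMSO. Its log2 change of -0.96 (SE 0.084, adjusted p = 0.000573, limma) was close in size to that of Hivep1. Rela, the gene of the p65 subunit, had 8.79, 8.94 and 8.85 in camptothecin, against 8.14, 8.29 and 8.05 in DMSO. It rose by 0.70 (SE 0.086, adjusted p = 0.00254, limma), so Nfkb1 and Rela differed in direction. They also differ in genomic span, 116 kb for Nfkb1 and 10.5 kb for Rela, and the part of span in their changes was not tested. Nfkb2, a further subunit gene, had a log2 change of 0.13 and did not pass (adjusted p = 0.329, limma). It was named after its values were seen, and the subunit genes Rel and Relb were not analysed here.

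Nfkbia, whose product IkB alpha holds NF-kB in the cytoplasm, rose by 0.89 (SE 0.079, adjusted p = 0.000597, limma). Traf6, a signalling adaptor upstream of IkB kinase, rose by 0.42 (SE 0.095, adjusted p = 0.0256, limma). The Traf6 call was lost without DMSO replicate 1 (0.37), DMSO replicate 3 (0.40), camptothecin replicate 2 (0.38) or camptothecin replicate 3 (0.38), and with arrays centred on their median (0.35) or on the ribosomal protein genes. Traf2, which Hivep3 binds in mice, averaged 5.80 ± 0.18 in camptothecin and 6.10 ± 0.062 in DMSO (SD, n = 3 each; adjusted p = 0.0866, limma), and was named after its values were seen.

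Genes reported as partners or targets of Hivep proteins, mostly from mouse and human cells outside the nervous system, passed the test in 3 of 16 cases, 1 higher and 2 lower. That is 6.25% higher and 12.5% lower, beside 11.3% and 9.35% of all genes, with a median log2 change of 0.03, and 0.06 over all genes. Of the 16 genes, 9 were dimmer than the median cluster, among them Pparg, Runx2, Cryaa and Il2, where a missed threshold leaves a change possible. With ribosomal centring 1 was higher and 5 were lower. The count was 2 when camptothecin replicate 3, DMSO replicate 1 or DMSO replicate 2 was left out.

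Jun, an AP-1 subunit that binds Hivep3 in T cells, had 9.11, 9.18 and 9.07 in camptothecin, against 8.05, 8.28 and 8.19 in DMSO. It rose by 0.95 (SE 0.082, adjusted p = 0.000537, limma). Wwp1, the ubiquitin ligase that joins mouse Hivep3, fell by 0.54 (SE 0.071, adjusted p = 0.00345, limma). Smad1, a BMP effector that joins mouse Hivep2, fell by 0.50 (SE 0.11, adjusted p = 0.0231, limma). The Smad1 call was lost when camptothecin replicate 3 (-0.49), DMSO replicate 1 (-0.47) or DMSO replicate 2 (-0.47) was left out.

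Myc, the gene to whose intron rat Hivep2 binds, averaged 7.19 ± 0.10 in camptothecin and 6.92 ± 0.060 in DMSO (SD, n = 3 each). Its log2 change of 0.27 did not pass (adjusted p = 0.0535, limma), although the groups did not overlap. Sstr2, a somatostatin receptor gene whose promoter Hivep2 binds, averaged 7.65 ± 0.049 in camptothecin and 7.86 ± 0.058 in DMSO (adjusted p = 0.0714, limma). Myc and Sstr2 were named after their values were seen.

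In the BMP and Smad pathway, in which Schnurri proteins act, genes passed the test in both directions. Of 35 measured genes, 7 rose, 11 fell and 17 did not pass, so 20.0% were higher and 31.4% lower, beside 11.3% and 9.35% of all genes. The median log2 change was -0.03. Falls numbered 5 among the 8 genes with a span of at least 100 kb and 6 among the 27 shorter genes, beside 34.8% and 6.13% of all genes in these span classes. Without DMSO replicate 1 the counts were 3 higher and 8 lower, and with ribosomal centring 2 higher and 18 lower.

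Acvr1, a type I BMP receptor, had 6.91, 7.14 and 7.04 in camptothecin, against 8.48, 8.36 and 8.31 in DMSO. Its log2 change of -1.35 (SE 0.086, adjusted p = 0.000142, limma) lay between those of Hivep1 and Hivep2. Smurf2, a ubiquitin ligase for Smads and their receptors, fell by 1.11 (SE 0.095, adjusted p = 0.000521, limma). Zeb2, a zinc finger repressor that binds Smads, fell by 1.06 (SE 0.061, adjusted p = 0.000102, limma).

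Tob1, an antiproliferative protein that binds Smads in mouse bone cells, went the other way. It had 9.03, 9.00 and 8.93 in camptothecin, against 7.58, 7.45 and 7.36 in DMSO, a rise of 1.52 (SE 0.080, adjusted p = 6.78e-05, limma). The other falls were Bmpr1b, Smurf1, Smad2, Smad1, Grem1, Bmpr2, Acvr2a and Bmpr1a, from -0.87 to -0.33. The other rises were Smad7, Bambi, Id2, Id1, Bmp2 and Acvr2b, from 0.48 to 0.30. These genes were named after their values were seen.

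Among other large regulators with C2H2 zinc fingers, most of those measured were lower. Of 50 listed genes 29 were measured, of which 16 fell, 2 rose and 11 did not pass, so 55.2% were lower and 6.90% higher, where 9.35% and 11.3% of all genes were. The median log2 change was -0.37. Falls numbered 10 among the 12 genes with a span of at least 100 kb and 6 among the 17 shorter genes, beside 34.8% and 6.13% of all genes in these span classes. The counts were 12 to 15 lower and 1 to 2 higher with 1 array left out.

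Zfpm2, a cofactor of GATA factors, had 7.14, 7.20 and 7.25 in camptothecin, against 8.64, 8.67 and 8.50 in DMSO. It fell by 1.41 (SE 0.074, adjusted p = 6.87e-05, limma), and Zeb2, given above, is on this list too. Zfp292, a large zinc finger protein, fell by 1.19 (SE 0.068, adjusted p = 9.90e-05, limma). Ctcf, which anchors chromatin loops and insulators, fell by 1.09 (SE 0.076, adjusted p = 0.000234, limma).

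Both genes of the list that rose were short, as were some that fell. Adnp2 rose by 0.48 and Ikzf5 by 0.33, with spans of 24.8 kb and 19.7 kb. Adnp, the paralogue of Adnp2, fell by 0.76 (SE 0.062, adjusted p = 0.000420, limma) with a span of 30.1 kb. Mynn and Sall3 were also called lower, with log2 changes of -0.59 and -0.66 and spans of 18.3 kb and 19.9 kb. All genes of this paragraph were named after their values were seen. With ribosomal centring 23 of the list were lower and 0 higher.

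**Figure D4:**
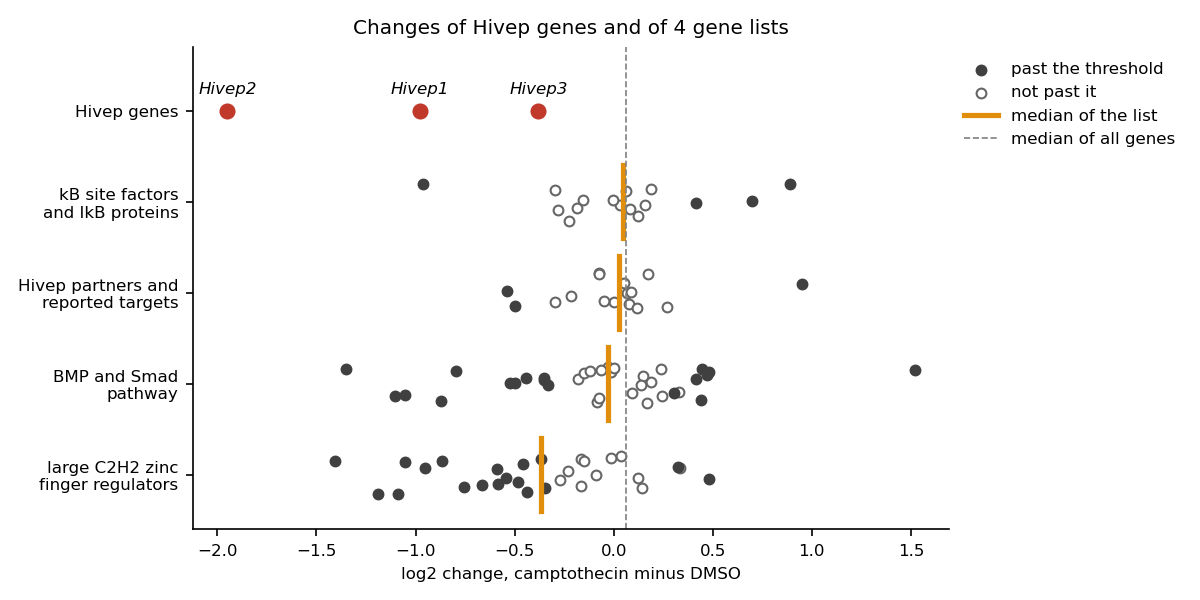
Log2 change, camptothecin minus DMSO (horizontal axis), of the 3 Hivep genes and of the measured genes of 4 lists, 1 point a gene (vertical position within a row has no meaning); filled grey points passed the threshold, orange bars are list medians and the dashed line is the median of all genes. The large C2H2 regulators have a median of -0.37, while the medians of the other 3 lists lie from -0.03 to 0.05.

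In a comparison of profiles over the 6 arrays, each gene was first centred on its own mean. Symbols with the prefixes Mir, Snor, Olr, Vom, LOC or RGD were kept out, so the ranks below do not run over all 14506 genes. Of the rest, the genes most like each Hivep gene were found by the root mean square of the log2 differences. For Hivep2 these were Lgr5, a receptor for R-spondins (0.087), Ano6, a phospholipid scramblase (0.122), Kcnk9, a potassium channel (0.146), and Nrp1, a semaphorin receptor (0.147). Their log2 changes ran from -2.07 for Lgr5 to -1.69 for Kcnk9. For Hivep1 they were Ppil4, of the cyclophilin family (0.033), Exoc6b, an exocyst subunit (0.035), Meis1, a homeodomain factor (0.044), and Pak5, a kinase (0.054), with changes from -1.02 to -0.91.

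For Hivep3 the nearest profiles were Senp8, a NEDD8 protease (0.039), Mtm1, a lipid phosphatase (0.042), Orc2, of the origin recognition complex (0.047), and Lrif1, a nuclear protein of silent chromatin (0.053). Their changes ran from -0.41 to -0.31. By this measure, which takes in the size of the change, the members differed from each other by 0.313 to 0.792. Hivep3 stood at rank 1006 for Hivep1 and 1084 for Hivep2, Hivep1 at 152 for Hivep2 and 10070 for Hivep3, and Hivep2 at 4487 for Hivep1 and 14276 for Hivep3, so other genes were closer to each.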

How the data were processed

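Total RNA of 6 cultures was labelled with biotin and measured on Affymetrix Rat Gene 1.0 ST arrays. The authors deposited log2 expression values, 1 per transcript cluster and array, made with RMA and oligo per the submitters' processing notes. The sources used here do not give tool versions, the genome build or how probes were annotated. Values were tested as deposited with limma 3.58.1 in R 4.3.3 (lmFit and eBayes, camptothecin minus DMSO, two-sided, Benjamini-Hochberg over 29214 clusters, threshold 0.05) after the fit was tested on simulated data. Precision is limited by the number of arrays.

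The platform annotation named 1 gene for 15310 clusters, more than 1 for 323 and no gene for 13581, and 15279 of the 15310 matched RefSeq GRCr8 by gene identifier. A gene was taken by its cluster with the highest mean. Protein sequences were not used here, and promoters of 2 of the 3 genes were matched. The Hivep genes, the lists and the rule for named genes were chosen with earlier results of these data known. That rule takes up to 4 called genes per list with the largest change and the nearest measured neighbour on each side. It also takes the 4 most similar profiles per Hivep gene among the genes ranked. Genes named outside it, other than cell type markers and dim genes, are marked in the text. Dim means a 6-array mean under the median of all clusters.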

Additional observations from a re-analysis of the deposited data

How the results depend on the processing

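The changes of Hivep1, Hivep2 and Hivep3 under all 14 alternatives ran from -1.23 to -0.93, -2.20 to -1.91 and -0.63 to -0.33, and with 1 array left out from -1.03 to -0.93, -1.99 to -1.91 and -0.46 to -0.33. Centring on the ribosomal protein genes, under which the median change of all clusters is -0.19, against 0.07 as deposited, gave -1.23, -2.20 and -0.63. It also gave 644 clusters higher and 7809 lower (main values 2937 and 2311) and a higher share of 7.62% of calls, against 56.0%. Genes called then numbered 8 of the kB list (main 4), 6 of the partner list (main 3) and 7 neighbours (main 1). Centring on medians gave 1627 clusters higher, a share of 37.2%, and 2 neighbours. Without dim clusters 5 partner genes and 4 neighbours were called, with 1-symbol clusters only 5 and 4, and with trend and robust 3 neighbours. With 1 array left out, clusters higher numbered 1187 to 2327, clusters lower 1581 to 2078, BMP genes 11 to 18, neighbours 1 to 3, and the higher share of calls was 41.9% to 54.7%. Of the named genes, Edn2 turned below 0 with quantile normalization again (-0.056), median centring (-0.060), ribosomal centring (-0.25) and without camptothecin replicate 3 (-0.055; 0.038 without camptothecin replicate 2 is its highest value with 1 array left out). Calls of Lrif1, Mtm1, Orc2, Smad1 and Traf6 were lost in 3 to 6 alternatives each, and calls were gained for Senp8 in 7, Aig1 in 5, Guca2b in 4, and Edn1 and Nedd9 in 1 each. Fewer clusters are tested without dim clusters and with 1-symbol clusters only. Centring on medians or on the ribosomal protein genes moves the changes of all clusters by the same amount. The ribosomal protein genes themselves had a median log2 change of 0.23 as deposited, so centring on them cannot be taken as neutral. For the other changes the cause was not tested.

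In a fit with a replicate block, 1677 clusters were called higher and 1794 lower, and the Hivep3 call was lost at the same change of -0.38. Same-numbered arrays correlated at -0.084, 0.022 and 0.085 in their deviations from the treatment means, and differently numbered ones at -0.164 to 0.146. Not every array correlated best with its own number. With 3 arrays per treatment, these values cannot settle whether the numbers pair the cultures, and the labels do not say.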
